A study of Mus musculus with 6 samples.

Results

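Small leucine-rich proteoglycans are secreted matrix proteins with a core of leucine-rich repeats, and most carry glycosaminoglycan chains. Peaks of Arid3a CUT&Tag in mouse vascular smooth muscle cells were described here at 10 of their genes: Lum, Dcn, Kera, Epyc, Bgn, Fmod, Prelp, Ogn, Aspn and Omd. A peak was taken where it overlapped the gene body, 10 kb to either side of it, or the stretch between neighbouring members. Peaks that touched each other across the 6 libraries were merged, which gave 35 regions of 79295 in the whole genome. The regions were chosen by the position of peaks in any list, so their holding peaks is the choice itself and not a result.

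CUT&Tag uses an antibody to bring a transposase to a chromatin protein, and the fragments it cuts are sequenced. Arid3a is a DNA-binding protein of the AT-rich interaction domain family. The siRNA-labelled group held 3 libraries of commercial primary cells, each given a different siRNA (si-Arid3a#1, si-Arid3a#2 or si-Arid3a#3), and the NC-labelled group held 3 libraries of such cells given a negative control siRNA. The protocol text describes angiotensin II treatment as a model of aortic aneurysm, but not which libraries received it. Spread within the siRNA-labelled group therefore includes differences between the 3 siRNAs. Nothing in the labels ties the NC-labelled libraries to separate cultures, so their spread may be technical. A p-value here reflects library-to-library spread alone. The knockdown is transient, and the Arid3a left in the cells was not measured here. CUT&Tag locates the protein and not its transcript. The peaks were not used to check the knockdown, because coverage, described below, also differed between the groups. No library without the antibody was analysed here. In all 6 lists the peaks were named after the opposite group, with an unchanged library number. Groups follow the sample labels, and each direction given below would be reversed if the names inside the lists were the correct ones.

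The lists held 43834 to 51682 peaks. The most common local background, a proxy of coverage, was 0.475 to 0.538 fragments per base in the siRNA-labelled libraries and 0.621 to 0.673 in the NC-labelled libraries, so group and coverage cannot be told apart in raw values. Gene-end peaks, meaning peaks within 1000 bp of either end of a gene, were found in every library at 44.0% of protein-coding genes. Of 6 smooth muscle genes, 3 had one in every library (Acta2, Tagln and Lmod1), and Myh11 had none in any library. They were found in every library at 0 of 4 fibroblast, 0 of 4 endothelial, 1 of 4 leukocyte (Cd68) and 2 of 4 keratocyte and cartilage genes (Aldh3a1 and Sox9). A region with a peak in all 6 libraries within 10 kb of the gene body was found at 6 of 6 smooth muscle and 4 of 4 fibroblast genes. It was found at 2 of 4 genes of each of the other 3 lists, against 62.4% of protein-coding genes. A peak is no measure of expression, so these do not settle the cell type.

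As background, class I members (decorin from Dcn, biglycan from Bgn, asporin from Aspn) bind fibrillar collagen, and decorin and biglycan carry chondroitin or dermatan sulfate. Class II members (fibromodulin from Fmod, lumican from Lum, keratocan from Kera, PRELP from Prelp, osteomodulin from Omd) bind collagen too, and several carry keratan sulfate. Class III holds epiphycan (Epyc), known from cartilage, and osteoglycin (Ogn), also called mimecan. In arteries decorin, biglycan and lumican regulate the assembly of collagen fibrils, and decorin binds TGF-beta.

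The members' promoter windows that were at hand are described first, because no peak of any library fell on them. RefSeq promoter windows, from 250 bp before to 50 bp after an annotated transcription start (build GRCm38.p6, the assembly of mm10), were at hand for 8 of the 10 genes, with 9 windows in all, and not for Dcn and Lum. None of the 9 windows was overlapped by a peak in any of the 6 libraries. Among all 32851 windows of the table, 60.9% had no peak in any library and 28.4% had a peak in every library. The windows below are those that hold ATTAAA, the core of the ARID3A motif. They are written in the direction of transcription, with ATTAAA or its reverse complement TTTAAT in capitals. They lie at chr1:133921352-133921651 (minus strand) for Prelp, chr1:134037004-134037303 (plus strand) for Fmod, chr13:49544193-49544492 (plus strand) for Aspn and chr13:49582212-49582511 (plus strand) for Omd. The Prelp window lies inside the gene body (133910304 to 133930102), so its annotated start is not at the right end of the gene.
Prelp: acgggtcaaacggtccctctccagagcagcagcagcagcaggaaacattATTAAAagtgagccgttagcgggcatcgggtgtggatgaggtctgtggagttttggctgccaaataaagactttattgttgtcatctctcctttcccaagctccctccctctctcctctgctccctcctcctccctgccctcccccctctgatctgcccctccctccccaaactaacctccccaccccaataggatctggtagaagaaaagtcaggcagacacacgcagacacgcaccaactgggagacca
Fmod: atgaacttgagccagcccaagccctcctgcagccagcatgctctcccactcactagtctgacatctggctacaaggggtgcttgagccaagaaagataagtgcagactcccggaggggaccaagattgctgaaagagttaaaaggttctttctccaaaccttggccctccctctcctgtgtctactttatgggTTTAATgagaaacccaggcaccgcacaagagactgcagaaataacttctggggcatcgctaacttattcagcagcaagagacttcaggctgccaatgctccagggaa
Aspn: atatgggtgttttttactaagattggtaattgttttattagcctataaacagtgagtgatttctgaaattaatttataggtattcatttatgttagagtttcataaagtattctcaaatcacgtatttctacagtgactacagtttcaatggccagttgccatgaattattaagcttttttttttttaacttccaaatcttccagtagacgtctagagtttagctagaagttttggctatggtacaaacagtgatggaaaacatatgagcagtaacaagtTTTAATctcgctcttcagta
Omd: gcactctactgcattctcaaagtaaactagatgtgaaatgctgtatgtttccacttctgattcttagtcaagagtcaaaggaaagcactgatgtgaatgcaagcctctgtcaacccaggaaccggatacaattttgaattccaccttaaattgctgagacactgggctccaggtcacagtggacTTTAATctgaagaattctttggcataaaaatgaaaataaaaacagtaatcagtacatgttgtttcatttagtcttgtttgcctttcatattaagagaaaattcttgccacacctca

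ATTAAA was thus found, on either strand, in 4 of the 9 member windows, against 13.9% of all promoter windows. GGAATG, the core of the TEAD motif, was in 2 of 9 (Ogn and the second Epyc window) against 14.7%. TGANTCA, the AP-1 motif, was in 0 of 9 against 7.81%, and the CArG box of serum response factor was in 0 of 9 against 1.63%. The motifs were searched separately and could overlap. In the whole table ATTAAA was in 6.005% of windows with a peak in every library, whose median GC content was 62.3%, and in 18.6% of windows with no peak, whose median was 48.3%. The member windows had a median GC content of 41.0%, with Bgn the highest at 63.7% and Aspn the lowest at 31.0%. A match of letters is a description and not a binding site.

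Peaks shared by all libraries were seldom at the ends of these genes. Of the 10 members, Dcn was the only gene with a gene-end peak in every library (1 of 10, against 44.0% of 21887 protein-coding genes). Another 7 had none in any library, as did 9364 of the 21887 protein-coding genes. A region with a peak in all 6 libraries lay within 10 kb of the body of 4 members (Dcn, Lum, Prelp and Omd), against 62.4% of protein-coding genes. Of the 35 regions, 12 had a peak in all 6 libraries, a share of 34.3% against 37.3% of all regions. A peak in 1 library only was found at 14, a share of 40% against 30.2% of all regions. By length the windows were not poor in regions. They held 6.83 regions per 100 kb, against 2.92 over all chromosomes. For regions with a peak in all 6 libraries the values were 2.34 and 1.09. The chromosome 10 cluster of Dcn, Lum, Kera and Epyc held 13 regions with 5 in all libraries, Prelp and Fmod on chromosome 1 held 16 with 6, Aspn, Omd and Ogn on chromosome 13 held 3 with 1, and Bgn on chromosome X held 3 with 0. The 110 member peaks had deposited folds of 3.25 to 17.1, where fold means summit signal relative to the background around it in that library. The folds and q-values are the authors' own and describe peaks within 1 list.

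Decorin is the best known proteoglycan of the family in the arterial wall. Its gene Dcn (chromosome 10, 97479500 to 97518163) had 3 regions shared by all libraries, in the gene or within 10 kb of it. The region over its left end (97479259 to 97479816) had summits that lay within 44 bp of each other. Its fold was 4.23, 4.42 and 6.8 in siRNA-labelled libraries 1 to 3, against 4.89, 6.65 and 5.39 in NC-labelled libraries 1 to 3. Its −log10 q was 4.35, 4.95 and 13.2 in the siRNA-labelled and 8.32, 15.6 and 10.0 in the NC-labelled libraries. siRNA-labelled library 3 had the highest fold of all 6 libraries and lay among the NC-labelled libraries in −log10 q, so the groups overlapped in both columns. A second region (97477984 to 97478725), which ended 775 bp outside the same end, had folds of 5.52, 5.58 and 4.89 in the siRNA-labelled libraries, against 4.68, 4.08 and 5.15 in the NC-labelled libraries, which overlapped as well. The strongest region of the gene (97516338 to 97516892) lay inside it, 1271 bp from the right end. It had folds of 8.27, 14.7 and 11.2 in the siRNA-labelled libraries, against 9.495, 12.95 and 12.7 in the NC-labelled libraries, and the highest and lowest value both came from the siRNA-labelled group. The strand of Dcn was not given in the tables used here, so neither end is named as the start.

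Lum, the lumican gene (chromosome 10, 97565501 to 97572703), had no peak in its body in any library. The gap of 47337 bp between Dcn and Lum held 2 regions with a peak in all libraries. The one nearer to Lum (97555664 to 97556392), 9109 bp to the left of its left end, was the strongest of all the member regions by its mean rank in −log10 q, at percentile 82.3 to 87.8 of the siRNA-labelled and 92.0 to 96.6 of the NC-labelled lists. Its fold was 10.7, 13.2 and 12.1 in siRNA-labelled libraries 1 to 3, against 14.0, 14.6 and 17.1 in NC-labelled libraries 1 to 3. Its −log10 q was 20.5, 29.05 and 28.4 in the siRNA-labelled libraries and 49.99, 45.6 and 63.8 in the NC-labelled libraries. Every siRNA-labelled library lay below every NC-labelled library in both columns. The share of all regions that separate in these columns was not counted, and the coverage proxy was lower in every siRNA-labelled library. The local background at this region was 1.53, 1.57 and 1.98 fragments in siRNA-labelled libraries 1 to 3. In NC-labelled libraries 1 to 3 it was 3.44, 2.70 and 3.16. The fold is taken after 1 is added to summit and background. At an equal ratio of summit to background it is therefore lower where the background is lower, so the separated folds do not give that ratio by itself. The other region of the gap (97537060 to 97537930), 18897 bp to the right of Dcn, had folds of 7.11, 8.27 and 9.09 in the siRNA-labelled libraries, against 9.04, 5.71 and 6.59 in the NC-labelled libraries, which overlapped.

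**Figure D1:**
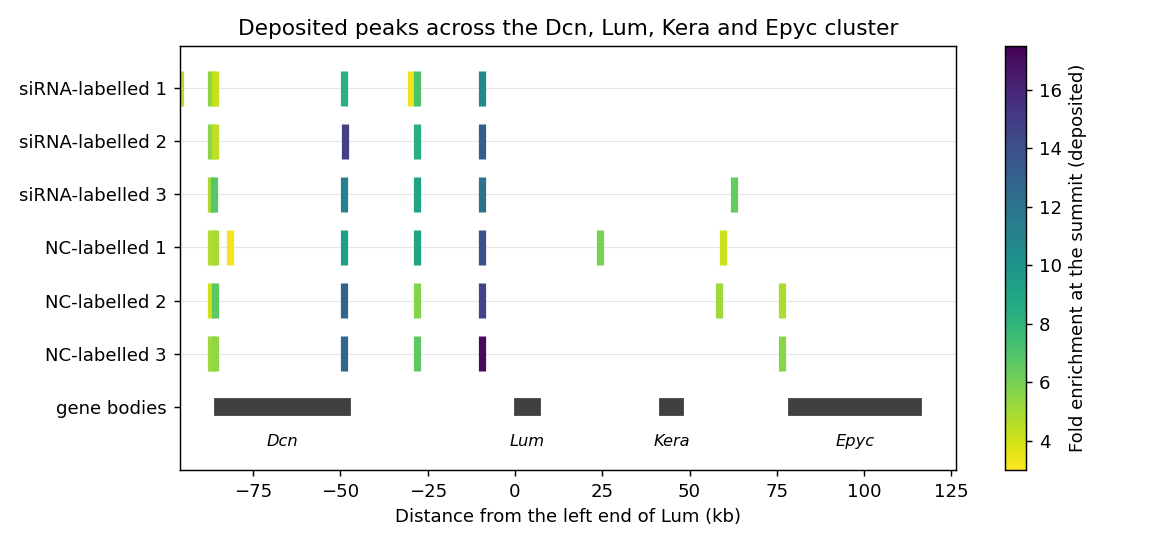
Position of the deposited peaks of each library along the chromosome 10 cluster, as distance from the left end of Lum in kb; tick colour is the deposited fold at the summit, tick width is not to scale, and dark bars are gene bodies. The 5 regions shared by all libraries lie at Dcn and in the gap before Lum, the darkest column in the NC-labelled rows lies 9109 bp to the left of Lum, and Lum and Kera hold no peak in their bodies.

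Kera, whose product keratocan is known from the cornea, had no region within 10 kb in any library, and the nearest region shared by all libraries lay 50570 bp from its left end. Epyc had none in its body. A region 1828 bp to the left of its left end, which is its start on the plus strand, had a peak in 0 siRNA-labelled and 2 NC-labelled libraries, with folds of 4.78 and 5.55. The gap between Kera and Epyc held 4 regions, including that one, and none was shared by all libraries. The regions of the cluster beyond Lum were thus each found in 1 or 2 libraries only.

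Prelp encodes a proline- and arginine-rich member that anchors basement membranes to the matrix. The gene (chromosome 1, 133910304 to 133930102, minus strand) had a region in all libraries (133911622 to 133912299) 1318 bp inside its left end, the end of transcription. Its fold was 7.00, 9.34 and 8.93 in siRNA-labelled libraries 1 to 3, against 6.28, 6.34 and 6.60 in NC-labelled libraries 1 to 3. Its −log10 q was 11.3, 15.7 and 17.6 in the siRNA-labelled and 10.7, 10.8 and 10.0 in the NC-labelled libraries. The siRNA-labelled values were the higher ones without overlap, but the share of all regions that separate in these columns was not counted. Elsewhere in the gene, NC-labelled library 1 alone had a peak, with a fold of 3.72, at 504 bp from the promoter window printed above.

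The gap of 107151 bp between Prelp and Fmod held 11 of the 35 regions, 5 of them in all libraries. The first of these shared regions (133941154 to 133942264) had folds of 7.09, 6.33 and 6.34 in the siRNA-labelled libraries, against 4.61, 5.30 and 5.25 in the NC-labelled libraries. The siRNA-labelled folds were again higher without overlap, and here too the share of all regions was not counted. The strongest of the locus by rank (133959206 to 133960014) had folds of 8.19, 11.1 and 10.1 in the siRNA-labelled libraries, against 8.0, 11.6 and 9.78 in the NC-labelled libraries. The region at 133953238 to 133953928 had folds of 7.40, 7.50 and 9.90 in the siRNA-labelled libraries, against 8.02, 9.16 and 7.19 in the NC-labelled libraries. The groups overlapped at both. A further pair lay inside the long noncoding RNA gene Bmncr. At 133978194 to 133979214 the folds were 5.59, 6.74 and 5.49 in the siRNA-labelled libraries, against 4.50, 4.82 and 6.02 in the NC-labelled libraries. At 133981045 to 133981758 they were 4.77, 8.29 and 7.92 in the siRNA-labelled libraries, against 7.42, 6.07 and 5.31 in the NC-labelled libraries. The groups overlapped at both of these regions too.

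Bmncr also held the only member region found throughout 1 group and nowhere in the other. It lay at 133991345 to 133991638, had a peak in 0 siRNA-labelled and 3 NC-labelled libraries, and its folds of 4.74, 5.92 and 4.81 rested on 7, 10 and 7 summit fragments in NC-labelled libraries 1 to 3. This was 1 of 35 regions, against 0.608% of all regions, and the reverse pattern was found at 0 of 35, against 0.342%. With 3 libraries against 3 the smallest two-sided exact permutation p of a single region is 0.1, so presence alone gives no call. Under a stricter limit, −log10 q no lower than 5, it no longer counted (0 of the member regions), and without NC-labelled library 1 the count was 2. Fmod itself, whose product fibromodulin guides collagen crosslinking, had no region shared by all libraries within 10 kb. Its 3 regions were found in 1 siRNA-labelled library, in 1 of each group and in 1 NC-labelled library, with folds of 3.81 to 5.86.

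**Figure D2:**
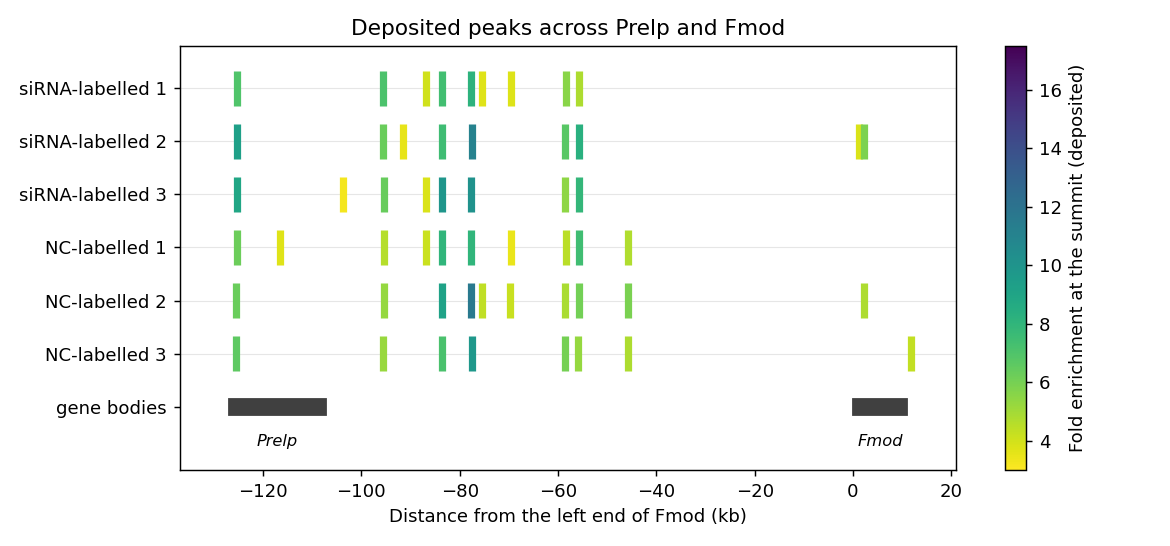
Position of the deposited peaks of each library across Prelp and Fmod, as distance from the left end of Fmod in kb; tick colour is the deposited fold at the summit, tick width is not to scale, and dark bars are gene bodies. The 6 regions shared by all libraries lie in Prelp and in the gap, and the column of 3 ticks in the NC-labelled rows only is the region at 133991345 to 133991638.

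Aspn, Omd and Ogn lie side by side within the span of the centromere protein gene Cenpp, so their regions cannot be assigned to 1 gene by position. The only region shared by all libraries (49583930 to 49584549) lay inside Omd, 1468 bp from its start. Its fold was 4.79, 5.09 and 6.24 in siRNA-labelled libraries 1 to 3, against 3.93, 6.27 and 4.76 in NC-labelled libraries 1 to 3. Its summits held 9 to 16 fragments, the fewest of the 12 shared regions, and the groups overlapped. Aspn and Ogn had no region within 10 kb.

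Bgn, the biglycan gene (chromosome X, 73483601 to 73495936), had no region shared by all libraries. A region 6489 bp before its start (73476724 to 73477112) had a peak in siRNA-labelled libraries 1 and 3, with folds of 5.73 and 4.02, and in NC-labelled libraries 1 to 3, with folds of 4.61, 6.15 and 6.99. The library without it was siRNA-labelled library 2. The only gene-end peak of Bgn, 414 bp past its start, came from siRNA-labelled library 1 alone, with a fold of 3.82. At the edge of the windows, the nearest region inside lay 9669 bp from Dcn (siRNA-labelled library 1, fold 4.64). The nearest outside lay 10007 bp from Dcn (1 NC-labelled library, fold 4.32) and 10237 bp from Prelp (1 NC-labelled library, fold 4.58). A region with a peak in all libraries lay 12557 bp to the right of Fmod, with folds of 7.51 to 9.18.

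To set the libraries side by side, whole numbers of fragments at each summit were solved from the deposited fold and −log10 p, and each library was centred on its median over the 29602 regions with a peak in all 6. These scaled summit fragments, on the log2 scale, were compared with limma, with Benjamini-Hochberg adjustment over all 29602 regions. Of these, 62 passed an adjusted p of 0.05 (0.209%), 35 lower and 27 higher in the siRNA-labelled libraries. With scaling by the background of each list the split was 8 lower and 71 higher, and with no scaling, which moved the median difference of all regions to -0.30, it was 2957 lower and 4 higher. Centring takes out any shift shared by most regions, so each centred difference is relative to the median region and a general loss of signal is not seen. A region enters this test only with a peak in every library, so differences that remove a peak are not seen by it.

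Of the 12 member regions tested, 1 passed, the region 9109 bp to the left of Lum. Its summits held 26, 33 and 35 fragments in siRNA-labelled libraries 1 to 3, against 61, 53 and 70 in NC-labelled libraries 1 to 3. Scaled, they held 34.5 ± 1.89 fragments in the siRNA-labelled and 55.5 ± 9.60 in the NC-labelled libraries (SD, n = 3 each). The difference on the log2 scale was -0.67 with a standard error of 0.16, which is 37.3% lower in the siRNA-labelled libraries (limma, adjusted p = 0.0463). It was lower under each of the 13 other settings, with log2 differences of -0.97 to -0.55, but the adjusted limma p lay between 0.00391 and 0.326. The call was lost with scaling by background (0.108), with siRNA-labelled libraries 2 and 3 as 1 sample (0.0803), without siRNA-labelled library 2 (0.111) or 3 (0.0919), and without NC-labelled library 1 (0.246), 2 (0.0755) or 3 (0.326).

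The region in Prelp and the first shared region beyond it, 11052 bp to its right, lay on the other side. They differed by 0.45 (standard error 0.21) and 0.56 (standard error 0.24) on the log2 scale, higher in the siRNA-labelled libraries, and did not pass (limma, adjusted p = 0.411 and 0.360). Scaled, the region in Prelp held 24.6 ± 1.65 fragments in the siRNA-labelled and 18.0 ± 1.09 in the NC-labelled libraries (SD, n = 3 each). The first shared region of the gap held 19 ± 3.19 in the siRNA-labelled and 12.9 ± 2.00 in the NC-labelled libraries (SD, n = 3 each). With no scaling their differences were 0.15 and 0.26. The unadjusted limma p was under 0.05 for 1 of 12 member regions in the lower direction (5.69% of all regions) and for 2 of 12 in the higher direction (5.44%). Likewise the scaled values of the groups did not overlap at 1 of 12 regions with the siRNA-labelled lower (7.84%) and at 2 of 12 with the siRNA-labelled higher (7.77%). The median log2 difference of the 12 regions was 0.04, against 0.00 over all regions. The region over the left end of Dcn had the next lowest value, at -0.32 (standard error 0.22; limma, adjusted p = 0.630), and the remaining 8 lay between -0.04 and 0.31.

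**Figure D3:**
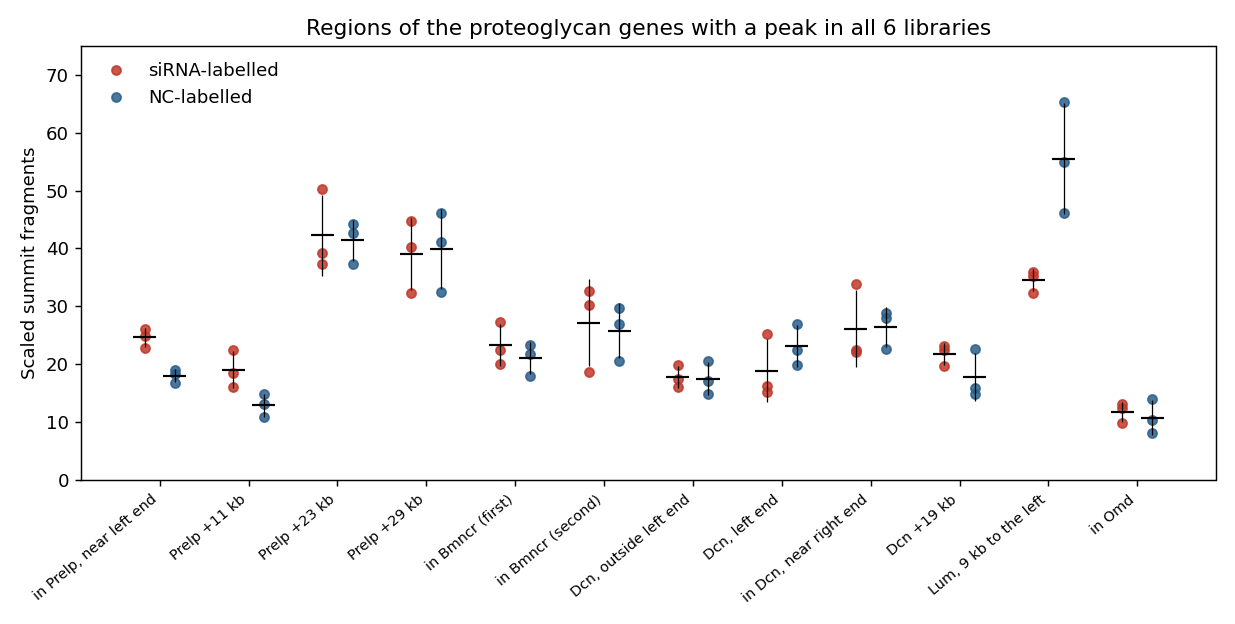
Scaled summit fragments at the 12 regions shared by all libraries, with 1 point per library, siRNA-labelled (red) to the left of NC-labelled (blue), the group mean as a horizontal bar and ± 1 SD as a vertical line (n = 3 each). The groups separate at the region 9 kb to the left of Lum, lower in the siRNA-labelled libraries, and at the 2 leftmost regions (in Prelp and 11052 bp to its right), higher in them.

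**Figure D4:**
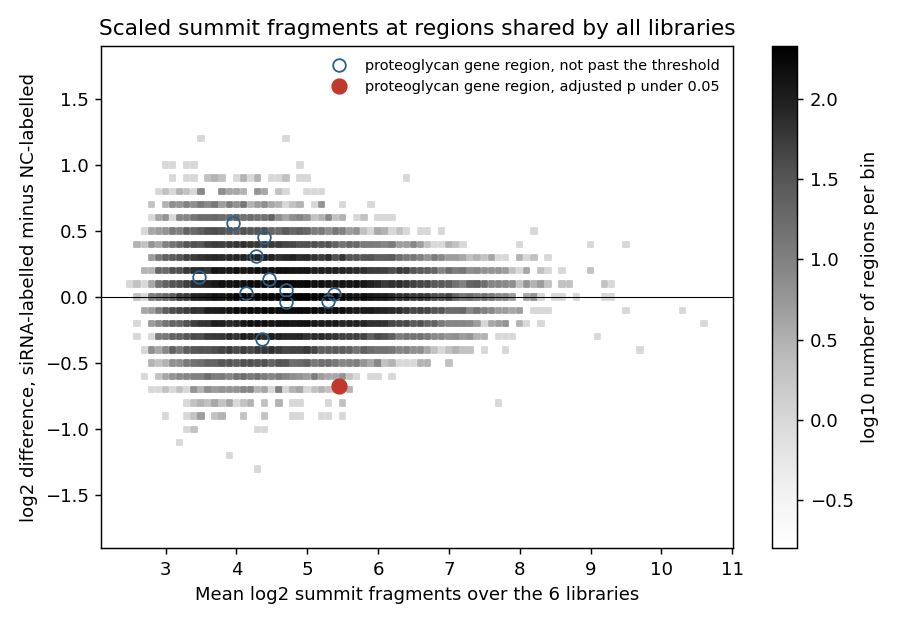
The log2 difference in scaled summit fragments, siRNA-labelled minus NC-labelled, against the mean log2 fragments of all 29602 shared regions (grey bins) and the 12 member regions (circles). The filled circle, at -0.67, is the region 9109 bp to the left of Lum, the only member region with an adjusted p under 0.05.

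The groups overlapped in the number and the covered length of the member peaks. The windows held 20, 16 and 16 peaks in siRNA-labelled libraries 1 to 3, against 21, 21 and 16 in NC-labelled libraries 1 to 3 (17.3 ± 2.31 in the siRNA-labelled and 19.3 ± 2.89 in the NC-labelled group, SD, n = 3 each; two-sided exact permutation p = 0.4). Peaks covered 9227, 6685 and 7945 bp in siRNA-labelled libraries 1 to 3, against 10378, 9931 and 7746 bp in NC-labelled libraries 1 to 3. The means were 7952 ± 1271 bp in the siRNA-labelled and 9352 ± 1408 bp in the NC-labelled libraries (SD, n = 3 each; two-sided exact permutation p = 0.3). Mean peak width was 459 ± 39.4 bp in the siRNA-labelled and 484 ± 10.6 bp in the NC-labelled libraries (SD, n = 3 each; two-sided exact permutation p = 0.5). The covered length of the siRNA-labelled group was 85.04% of that of the NC-labelled group in these windows and 86.5% in the whole genome, where it was 23.8 ± 1.47 Mb in the siRNA-labelled and 27.5 ± 0.171 Mb in the NC-labelled libraries (SD, n = 3 each; two-sided exact permutation p = 0.1). The value for the windows was thus close to the genome-wide one.

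Genes that act with the proteoglycans were set beside them, each by its own list. Among 22 genes that build the linker and the chondroitin or dermatan sulfate chains, 17 had a gene-end peak in every library, among them the galactosyltransferase genes B4galt7 and B3galt6, the chondroitin synthase gene Chsy1 and the dermatan sulfate epimerase gene Dse. The keratan sulfate list had 4 of 7, including the sulfotransferase gene Chst1. The collagen partners had 6 of 8, including Col1a1 and Col1a2, with none in any library at Col6a3. The ligands and receptors that decorin or biglycan bind had 8 of 10, including Tgfb1, Egfr, Met and Tlr4, with none in any library at Tgfb2. Related leucine-rich matrix genes had 3 of 8 (Nyx, Podnl1 and Tsku), and other matrix proteoglycans had 2 of 8 (Bcan and the perlecan gene Hspg2). These are counts beside the 44.0% of all protein-coding genes, and no list was tested against another.

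No region within 10 kb of these other genes passed the limma threshold. The numbers tested were 59 for linker and chondroitin or dermatan sulfate synthesis, 9 for keratan sulfate, 23 for the collagens, 47 for ligands and receptors, 9 for the related leucine-rich genes and 16 for the other matrix proteoglycans. Before adjustment, a limma p under 0.05 was found for 3 lower and 1 higher region of the linker and chondroitin or dermatan sulfate list and for 2 lower and 3 higher regions of the ligands and receptors. It was found for 0 lower and 2 higher regions of both the collagens and the related leucine-rich genes, for 1 lower and 0 higher of the keratan sulfate list, and for 2 lower and 0 higher of the other proteoglycans. Lower and higher here are the siRNA-labelled relative to the NC-labelled libraries, and over all regions the shares were 5.69% lower and 5.44% higher. The list medians of the log2 difference lay between -0.10 (keratan sulfate) and 0.23 (related leucine-rich genes).

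**Figure D5:**
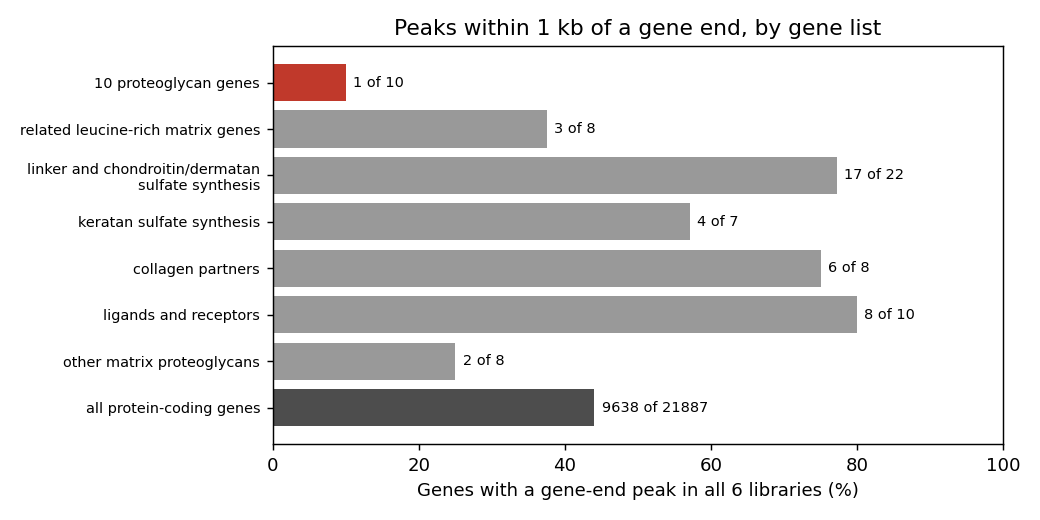
Share of genes in each list with a peak within 1000 bp of either gene end in all 6 libraries, with the numbers beside the bars and all protein-coding genes at the bottom. The 10 proteoglycan genes stand at 1 of 10 (Dcn), the linker and chondroitin or dermatan sulfate synthesis list at 17 of 22, and all protein-coding genes at 44.0%.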

How the data were processed

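The submitters' processing notes name Bowtie2, Picard, MACS2 and the mouse build mm10, but their versions and settings were not given in the sources available. The authors deposited 1 peak list per library. For each peak the deposited columns are the interval, an integer score, the ratio of summit to local background (the fold), the −log10 p-value, the −log10 q-value and the summit position. The score was only checked against the q-value. Total reads were not used here.

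With a pseudocount of 1, the fold and the −log10 p fix a whole number of summit fragments and the local background, within a relative tolerance of 0.0005, for 100.0% of the peaks. Counting error is large, since the median summit held 16 fragments in each siRNA-labelled library and 18 to 20 in the NC-labelled libraries. Peaks were merged over the 6 libraries (overlap of at least 1 bp), and members on 1 chromosome within 1000000 bp counted as neighbours. Gene positions and promoter sequences came from RefSeq tables (GRCm38.p6); all genes of the lists matched. Fragments were compared with limma 3.58.1 (R 4.3.3, trended variance, no covariates, both groups in 1 fit), and window totals with exact permutation over 20 assignments (SciPy 1.17.1). Solver and fit were tested on simulated data.

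Named regions follow a rule: those at a member's gene end, in all 6 libraries, in 3 of 1 group and 0 of the other, or past the limma threshold. Regions named outside it (near Epyc, before Bgn, within Prelp in 1 library, in Fmod and at the window edges) were chosen after their values were seen. The members, lists and rule were chosen with earlier results of these data known. Libraries of a group were kept as 3. The mean chi-square per region was 0.779 between siRNA-labelled libraries 2 and 3, and 1.22 and 1.15 between library 1 and each of them. For the NC-labelled pairs it was 0.764 to 0.819. The lists of libraries 2 and 3 shared 57.0% of covered bases, against 56.15% and 56.3% for the other siRNA-labelled pairs and 59.9% to 61.4% for the NC-labelled pairs. Counting libraries 2 and 3 as 1 was an alternative, although they were given different siRNAs. The chi-square of the NC-labelled pairs was similar to that of libraries 2 and 3, but no setting merged NC-labelled libraries. Between the groups it was 1.07 to 1.56. Counting the NC-labelled libraries as n = 3 may therefore overstate how independent they are.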

Additional observations from a re-analysis of the deposited data

How the results depend on the processing

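Of the 35 member regions, the number with a peak in all 6 libraries moved from 12 to 6 where peaks had to cover 50% of the region, and lay at 12 to 13 with each library left out. The number in the NC-labelled libraries only moved from 1 to 0 with peaks of −log10 q of at least 5, and lay at 1 to 2 with each library left out. Differences in peak number (siRNA-labelled minus NC-labelled) kept their sign, at -3.67 to -1.17 with each library left out, as did those in covered length, at -2202 to -766 bp. The labels do not say whether the replicate numbers pair the libraries. The deviations of same-numbered libraries correlated at 0.04, 0.03 and -0.02 over the 29602 shared regions. Those of differently numbered libraries of the 2 groups correlated at -0.07 to 0.05. Counting error is large at these summits, so these values cannot settle whether the libraries are paired. With the replicate block the exact permutation p was 0.5 for both peak number and covered length (values -2 and -1399). That blocked permutation has only 8 assignments, so its p could not fall under 0.05. With the same block limma made 130 calls in the whole table in place of 62, with 1 member region as before.

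The whole-table number of limma calls was 2961 with no scaling, 105 with log2(fragments + 5), 17 with siRNA-labelled libraries 2 and 3 as 1 sample, and 9 to 334 with each library left out. The number of member regions called was 0 with scaling by background and with siRNA-labelled libraries 2 and 3 as 1 sample, and 0 to 1 with each library left out. The cause was not tested.

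Of 152 log2 differences of member regions under other settings, 128 kept their sign and 24 turned, all 24 at 7 regions that passed in no setting. With no scaling, which shifts every region down, the values were -0.28 (133953238 to 133953928), -0.16 (133978194 to 133979214), -0.25 (133981045 to 133981758), -0.26 (97477984 to 97478725) and -0.15 (49583930 to 49584549). With scaling by background they were 0.0691 (133959206 to 133960014) and 0.0577 (97516338 to 97516892), and with siRNA-labelled libraries 2 and 3 as 1 sample -0.0203 (133953238 to 133953928) and -0.0726 (133981045 to 133981758). With each library left out the ranges were -0.11 to 0.10 (133953238 to 133953928), -0.17 to 0.10 (133959206 to 133960014), -0.10 to 0.30 (133981045 to 133981758), -0.0803 to 0.16 (97477984 to 97478725), -0.24 to 0.0658 (97516338 to 97516892) and -0.0344 to 0.36 (49583930 to 49584549). Summits of the member peaks held 4 to 70 fragments, so counting error is wide at the weakest, and all tests rest on 3 libraries a group.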
